A study of Mus musculus with 17 samples.

Results

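The immunoproteasome and the machinery that loads peptides onto MHC class I were followed in thoracic spinal cord of mice with targeted experimental autoimmune encephalomyelitis (EAE). The genes listed for this machinery were Psmb8, Psmb9, Psmb10, Psme1, Psme2, Tap1, Tap2, Tapbp, B2m and Nlrc5, and every probe set of the array annotated to only 1 of these symbols was taken. This gave 15 probe sets for 9 of the 10 genes, out of 34958 single-gene probe sets for 18194 genes. Psme2 shared its 1 probe set with Psme2b and is not reported. A gene with more than 1 probe set is represented by its brightest, and its other probe sets are given beside it.

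Female C57BL/6 mice (C57BL/6J in the study's methods) were compared in 3 groups with 1 array per mouse, 17 mice in all. The labels give an age of 8 weeks without naming the step, and since EAE mice were sampled weeks after immunization, the age of each group at sampling is not stated. The anti-RGMa group (n = 6) had targeted EAE and received a humanized antibody against repulsive guidance molecule-a. The isotype control group (n = 5) had targeted EAE and received palivizumab. Both antibodies were given intravenously at 10 mg/kg, first at 9 days post cytokine injection (DPI), and the cords were sampled at 14 DPI over 4.5 mm around the injection site. Both EAE groups also shared immunization with a myelin oligodendrocyte glycoprotein peptide in complete Freund's adjuvant, a laminectomy, an injection of TNF-α and IFN-γ into the cord, and pertussis toxin. The naïve group (n = 6) has no treatment in the labels, so a difference from naïve cord covers disease, surgery, injected cytokines and antibody, which cannot be told apart.

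Cells carry a standard proteasome whose catalytic β subunits are Psmb6, Psmb7 and Psmb5. Under interferons, foremost IFN-γ, newly built proteasomes take in Psmb9, Psmb10 and Psmb8 in their places, and this immunoproteasome yields more peptides that fit MHC class I. Psme1 and Psme2 form the PA28 activator that caps the core, Tap1 and Tap2 form the transporter that moves peptides into the endoplasmic reticulum, and Tapbp (tapasin) bridges the transporter and the empty class I molecule. B2m is the light chain of every class I molecule, and Nlrc5 is the transactivator that raises transcription of class I genes through factors bound to their promoters. Resting neurons, astrocytes and oligodendrocytes hold little of this system, whereas microglia, endothelium and infiltrating leukocytes can carry much of it.

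Promoter windows from RefSeq (build GRCm38.p6, 250 bases before to 50 bases after the start site) were matched by symbol for 8 of the 10 genes, with 9 windows in all. The 4 windows below are shown because they hold the interferon-type motifs found in the set, or, for Tap1, because its start site lies 226 bases from that of Psmb9 on the opposite strand, so that the windows of the pair share 275 bases. Capitals mark matches, on either strand, to the core of the interferon-stimulated response element (GAAANNGAAA), the gamma-activated site (TTCNNNGAA), the CRE core (TGACG), the CCAAT box (CCAAT) and the NF-kB site. No matches overlapped in these windows.
B2m, chr2:122147437-122147736, plus strand: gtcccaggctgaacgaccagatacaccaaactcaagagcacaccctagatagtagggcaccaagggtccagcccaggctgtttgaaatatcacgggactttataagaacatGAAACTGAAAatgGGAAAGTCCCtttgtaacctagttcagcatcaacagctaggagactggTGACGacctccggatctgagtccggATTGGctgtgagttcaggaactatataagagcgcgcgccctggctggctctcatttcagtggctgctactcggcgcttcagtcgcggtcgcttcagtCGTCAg
Psme1, chr14:55578244-55578543, plus strand: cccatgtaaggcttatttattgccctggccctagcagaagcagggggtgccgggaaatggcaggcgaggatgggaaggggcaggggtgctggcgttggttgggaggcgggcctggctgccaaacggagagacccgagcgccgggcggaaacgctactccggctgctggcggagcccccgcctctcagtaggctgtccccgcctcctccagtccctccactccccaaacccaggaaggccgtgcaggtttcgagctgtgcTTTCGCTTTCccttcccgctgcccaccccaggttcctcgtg
Psmb8, chr17:34197945-34198244, plus strand: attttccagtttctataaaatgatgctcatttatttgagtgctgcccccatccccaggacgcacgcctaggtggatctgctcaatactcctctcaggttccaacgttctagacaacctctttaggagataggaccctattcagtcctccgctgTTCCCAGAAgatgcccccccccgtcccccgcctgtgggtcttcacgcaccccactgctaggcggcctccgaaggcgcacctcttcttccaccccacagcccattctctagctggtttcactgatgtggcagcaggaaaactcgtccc
Tap1, chr17:34187306-34187605, plus strand: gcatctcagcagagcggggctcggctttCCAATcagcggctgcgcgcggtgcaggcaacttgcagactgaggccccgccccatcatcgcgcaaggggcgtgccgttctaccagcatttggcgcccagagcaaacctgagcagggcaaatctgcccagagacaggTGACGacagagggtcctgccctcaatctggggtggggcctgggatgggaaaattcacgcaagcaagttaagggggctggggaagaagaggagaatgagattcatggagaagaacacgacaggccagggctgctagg

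The interferon-stimulated response element core was found in 2 of the 9 windows, B2m and Psme1, against 3.44% of 32851 windows of the same length. In the B2m window the NF-kB match followed it, and NF-kB matches were present in 8.46% of all windows. The gamma-activated site was found in 1 of the 9, Psmb8, against 8.30% of all windows. The CRE core stood in 5 of the 9 (20.8% of all) and the CCAAT box in 4 of the 9 (37.4% of all). These windows are not all separate, since the 2 Psme2 windows overlap and hold the same CRE match, and those of Psmb9 and Tap1 share a CRE and a CCAAT match. These are matches of letters and say nothing of binding.

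The signals were those deposited by the authors, computed with MAS5.0 and globally scaled, so that the trimmed mean signal was 500 in every array, and they were taken to log2. The median signal of an array was between 136 and 157 in the anti-RGMa group, between 137 and 165 in the isotype control group and between 132 and 145 in the naïve group. No 2 arrays held identical values. Isotype control replicates 3, 4 and 5 had summed signals of 8 skeletal muscle markers of 10555, 89230 and 6562, against 430 to 573 in the other isotype control arrays, 467 to 1656 in the anti-RGMa group and 300 to 2634 in the naïve group. Without these 3 arrays, 13 of the 15 probe sets were again called higher in isotype control than in naïve cord. Groups were compared with limma in a single fit over the 17 arrays. A probe set passed when its unadjusted p was under 0.05 and its fold change over 1.5, and adjusted p-values are Benjamini-Hochberg values over all 34958 probe sets.

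Every measured gene of the set rose in EAE cord. With the anti-RGMa antibody, 9 of 9 genes were higher than in naïve cord, where 14.0% of all 18194 genes were called higher, and their median log2 fold change was 2.71 against -0.03 over all genes. With the isotype control antibody, 9 of 9 were higher than in naïve cord (18.0% of all genes), with a median log2 fold change of 2.95 against -0.04 over all genes. In both comparisons the EAE and naïve arrays of the 9 genes did not overlap, which held for 13.9% of all genes in the anti-RGMa comparison and for 18.3% in the isotype control comparison. Over the 15 probe sets, 13 were higher and 1 lower with the anti-RGMa antibody (12.5% and 11.2% of all probe sets) and 13 higher with the isotype control antibody (16.5%). Between anti-RGMa and isotype control, 0 of the 9 genes passed in either direction, where 1.23% of all genes were called higher and 2.73% lower. Both comparisons with naïve cord share the naïve arrays, so they are not independent.

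**Figure D1:**
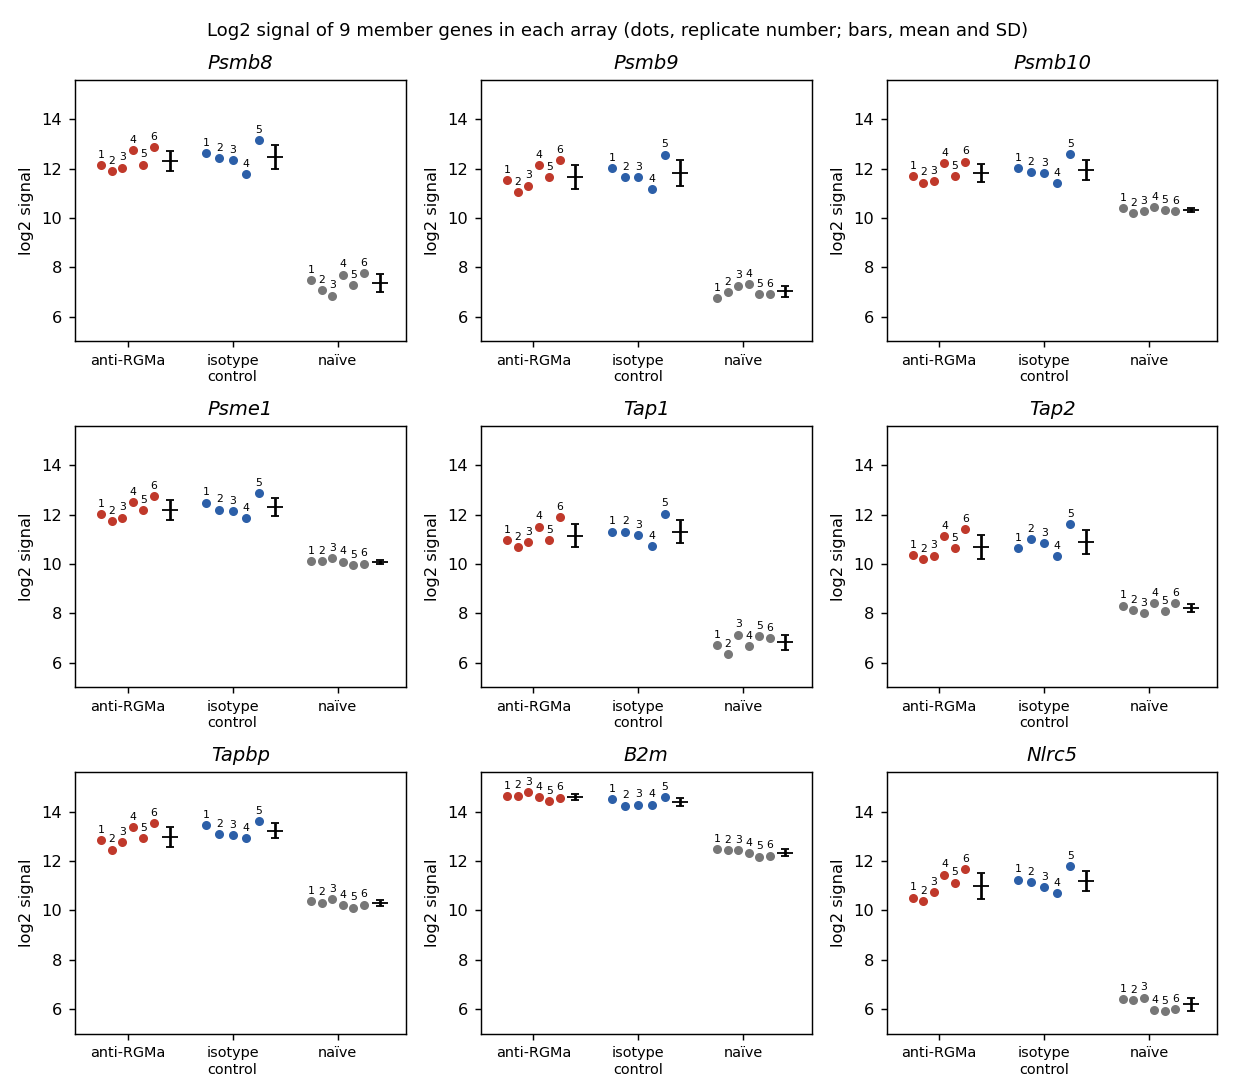
Log2 signal (vertical axes, same range in every panel) of the 9 genes in each array, with the replicate number above each dot and bars for the mean and SD of the anti-RGMa (n = 6), isotype control (n = 5) and naïve (n = 6) groups. In every panel the EAE arrays lie above the naïve arrays, and the anti-RGMa and isotype control arrays overlap.

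Of the catalytic subunits, Psmb8 (β5i, the chymotrypsin-like subunit of the immunoproteasome) had log2 signals of 11.90, 12.16 and 12.86 (lowest, median and highest) in the anti-RGMa group, 12.62, 12.41, 12.35, 11.79 and 13.15 in isotype control replicates 1 to 5, and 6.85, 7.38 and 7.78 in the naïve group. The lowest EAE array was thus far above the highest naïve array, and the ranges of the antibody groups overlapped. Psmb8 was 30.8-fold higher in anti-RGMa than in naïve cord (log2 fold change 4.94, 95% confidence interval 4.45 to 5.44, adjusted p = 4.1e-10). It was 34.3-fold higher in isotype control than in naïve cord (log2 fold change 5.10, 4.59 to 5.62, adjusted p = 4.9e-10).

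Psmb9 (β1i), whose start site neighbours that of Tap1, had log2 signals of 11.06, 11.59 and 12.33 in the anti-RGMa group, 12.03, 11.64, 11.67, 11.16 and 12.57 in isotype control replicates 1 to 5, and 6.74, 6.96 and 7.30 in the naïve group. Again no EAE array reached down to the naïve arrays. It rose 25.0-fold in anti-RGMa over naïve cord (95% confidence interval of the fold 17.6 to 35.5, adjusted p = 1.2e-09) and 27.6-fold in isotype control over naïve cord (19.1 to 39.9, adjusted p = 1.4e-09). Psmb10 (β2i), the remaining immunoproteasome subunit, started from a higher signal in naïve cord and had the smallest rise of the set. Its log2 signals were 11.43, 11.69 and 12.28 in the anti-RGMa group, 12.02, 11.86, 11.83, 11.42 and 12.59 in isotype control replicates 1 to 5, and 10.19, 10.30 and 10.43 in the naïve group. This was 2.80-fold higher in anti-RGMa (2.15 to 3.65, adjusted p = 1.4e-05) and 3.09-fold higher in isotype control (2.34 to 4.08, adjusted p = 5.9e-06) than in naïve cord.

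None of the 3 standard subunits that these replace passed as higher in EAE cord. Psmb5, the counterpart of Psmb8, averaged 11.65 ± 0.19 on the log2 scale in the anti-RGMa group, 11.68 ± 0.07 with the isotype control antibody and 11.80 ± 0.07 in naïve cord (SD, n = 6, 5 and 6), and it did not pass in any comparison. Psmb6, the counterpart of Psmb9, averaged 11.81 ± 0.14, 11.68 ± 0.12 and 11.87 ± 0.09 in the same groups and did not pass either. Psmb7, the counterpart of Psmb10, fell in EAE. Its log2 signals ranged between 11.01 and 12.08 in the anti-RGMa group, between 11.33 and 11.81 in the isotype control group and between 12.37 and 12.74 in the naïve group, so that the EAE and naïve arrays did not overlap. The log2 fold change was -0.73 in anti-RGMa (adjusted p = 0.00201) and -0.94 in isotype control (adjusted p = 0.000242), each against naïve cord.

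The change of each immunoproteasome subunit was then set against that of its standard counterpart within the same arrays, over 3 pairs and 3 comparisons, with two-sided exact permutation tests adjusted over the 9. In anti-RGMa against naïve cord the difference of log2 changes was 5.10 for Psmb8 over Psmb5, 4.71 for Psmb9 over Psmb6 and 2.21 for Psmb10 over Psmb7. In isotype control against naïve cord it was 5.22, 4.98 and 2.56 for the same pairs. Every one of these 6 had the smallest p that the splits of the arrays allow (exact p = 0.00216 for anti-RGMa and 0.00433 for isotype control, adjusted p = 0.00649), and the arrays of the groups did not overlap. Each immunoproteasome subunit already separated these groups alone and no standard subunit passed as higher, so these p-values add little to the calls above. Between anti-RGMa and isotype control the differences were -0.12, -0.27 and -0.35, with exact p = 0.641, 0.368 and 0.320 (adjusted p = 0.641, 0.414 and 0.412). Without anti-RGMa replicate 6 the last of these, Psmb10 over Psmb7, was -0.59 with an unadjusted exact p of 0.0238. This was the lowest of 11 values with 1 array left out (-0.59 to -0.24), and that array had the lowest Psmb7 signal (11.01).

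**Figure D2:**
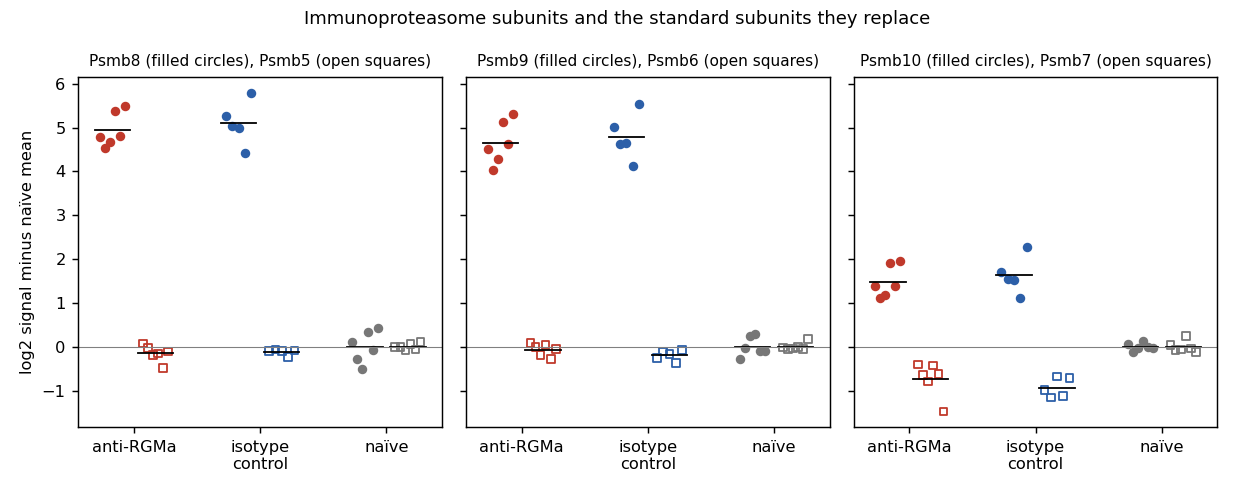
Log2 signal minus the naïve mean (vertical axis) of each immunoproteasome subunit (filled circles) and of the standard subunit it replaces (open squares), 1 point per array, with lines at the group means. The filled circles of Psmb8 and Psmb9 lie far above 0 in both EAE groups while Psmb5 and Psmb6 stay near 0, and for Psmb10 and Psmb7 the points move apart in opposite directions, with means of 1.63 and -0.94 in isotype control.

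Psme1 encodes the α subunit of PA28. Its log2 signals were 11.74, 12.10 and 12.77 in the anti-RGMa group, 12.49, 12.21, 12.15, 11.87 and 12.87 in isotype control replicates 1 to 5, and 9.95, 10.11 and 10.23 in the naïve group. Naïve arrays lay close together and apart from the EAE arrays. The rise over naïve cord was 4.28-fold in anti-RGMa (3.29 to 5.58, adjusted p = 3.1e-07) and 4.70-fold in isotype control (3.56 to 6.19, adjusted p = 2.1e-07). Its promoter window, printed above, holds an interferon-stimulated response element core just past the start site.

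Both subunits of the peptide transporter rose, with the larger fold for Tap1, a difference between the genes that was not tested. Tap1 had log2 signals of 10.69, 10.96 and 11.89 in the anti-RGMa group, 11.31, 11.32, 11.19, 10.72 and 12.05 in isotype control replicates 1 to 5, and 6.35, 6.85 and 7.14 in the naïve group. It was 20.0-fold higher in anti-RGMa (14.2 to 28.1, adjusted p = 2.0e-09) and 22.5-fold higher in isotype control (15.7 to 32.1, adjusted p = 2.0e-09) than in naïve cord, with no overlap. For Tap2 the log2 signals were 10.20, 10.51 and 11.40 in the anti-RGMa group, 10.66, 11.03, 10.84, 10.34 and 11.61 in isotype control replicates 1 to 5, and 8.01, 8.23 and 8.42 in the naïve group. Its rise over naïve cord was 5.47-fold in anti-RGMa (3.95 to 7.59, adjusted p = 6.2e-07) and 6.35-fold in isotype control (4.51 to 8.94, adjusted p = 3.1e-07).

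Tapbp, the bridge between transporter and class I molecule, had log2 signals of 12.46, 12.89 and 13.54 in the anti-RGMa group, 13.46, 13.08, 13.05, 12.93 and 13.63 in isotype control replicates 1 to 5, and 10.12, 10.27 and 10.45 in the naïve group. All EAE arrays exceeded all naïve arrays. The fold rise over naïve cord was 6.52 in anti-RGMa (5.09 to 8.36, adjusted p = 1.1e-08) and 7.74 in isotype control (5.96 to 10.0, adjusted p = 6.0e-09). A second Tapbp probe set (1450378_at) gave log2 fold changes of 1.90 in anti-RGMa and 1.95 in isotype control, each against naïve cord, both of which passed.

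B2m, the light chain, had log2 signals of 14.42, 14.61 and 14.80 in the anti-RGMa group, 14.50, 14.25, 14.29, 14.28 and 14.59 in isotype control replicates 1 to 5, and 12.18, 12.37 and 12.48 in the naïve group. Its EAE arrays lay close together and above all naïve arrays. B2m rose 4.81-fold in anti-RGMa (4.23 to 5.46, adjusted p = 3.9e-11) and 4.11-fold in isotype control (3.59 to 4.70, adjusted p = 2.5e-10) over naïve cord. The other B2m probe set (1449289_a_at) gave log2 fold changes of 2.54 and 2.47 in the same comparisons, and both passed.

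Nlrc5, the transactivator, was dim in naïve cord and bright in EAE cord. Its log2 signals were 10.37, 10.93 and 11.67 in the anti-RGMa group, 11.25, 11.16, 10.96, 10.71 and 11.79 in isotype control replicates 1 to 5, and 5.91, 6.19 and 6.47 in the naïve group. The EAE and naïve arrays were separated by a wide gap. It was 27.7-fold higher in anti-RGMa (19.8 to 38.7, adjusted p = 4.7e-10) and 31.6-fold higher in isotype control (22.3 to 45.0, adjusted p = 5.5e-10) than in naïve cord. The naïve signals of Nlrc5, Psmb8, Psmb9 and Tap1 are low on this array, where MAS5.0 signals carry background, so that these folds are less certain than those of the brighter genes.

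Most leukocyte markers rose in the same cords. The summed signal of 9 macrophage and monocyte markers ranged between 28777 and 45882 in the anti-RGMa group, between 29492 and 48203 in the isotype control group and between 1626 and 2493 in the naïve group, and 9 of 9 rose over naïve cord in both EAE groups. That of 9 T cell markers ranged between 2294 and 4569, between 1884 and 4349 and between 219 and 316 in these groups, with 8 of 9 higher in both EAE groups. The exception, Cd8a, averaged 6.95, 6.72 and 6.75 on the log2 scale in the anti-RGMa, isotype control and naïve groups. In each EAE group 4 of 6 NK cell, 4 of 5 B cell and 5 of 7 homeostatic microglia markers were higher. In anti-RGMa and isotype control, 3 and 4 of 5 dendritic cell, 3 and 6 of 8 endothelial and 3 and 1 of 6 astrocyte markers were higher. Of the dendritic cell markers 1 was lower in isotype control. Over all genes, 14.0% were called higher than in naïve cord in anti-RGMa and 18.0% in isotype control. Summed neuron markers (7 genes) ran the other way, at 33863 to 61955 in the anti-RGMa group, 30899 to 48860 in the isotype control group and 78618 to 85764 in the naïve group. Of these 7, 4 were lower than in naïve cord in anti-RGMa (9.12% of all genes) and 7 in isotype control (15.5% of all genes). The part of these cell types in the rises was not tested, and in bulk cord more cells of a type and more RNA per cell cannot be told apart.

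Between the antibody groups, 0 of the 9 genes passed, and 1 of them, B2m, had an unadjusted p under 0.05. The log2 fold change of anti-RGMa against isotype control was below 0 for 8 of the 9 genes, with a median of -0.16 against 0.01 over all genes. These 8 varied together from array to array, so their shared sign is not 8 separate observations. The log2 fold change ranged between -0.25 for Tapbp (95% confidence interval -0.62 to 0.13, adjusted p = 0.547) and 0.23 for B2m (0.03 to 0.42, adjusted p = 0.326). The intervals were -0.67 to 0.36 for Psmb8, -0.67 to 0.39 for Psmb9, -0.54 to 0.26 for Psmb10 and -0.53 to 0.27 for Psme1. They were -0.68 to 0.35 for Tap1, -0.71 to 0.28 for Tap2 and -0.70 to 0.31 for Nlrc5. A fall of 1.5-fold therefore lay inside the intervals of Psmb8, Psmb9, Tap1, Tap2, Tapbp and Nlrc5, and a rise of that size lay outside all 9. B2m had an unadjusted p of 0.0247 and a 1.17-fold difference, under the fold threshold, and 0.07 on the log2 scale with its other probe set. Some markers of other cells also passed the unadjusted threshold between the antibody groups, where 2.73% of all genes were called lower and 1.23% higher. Lower in anti-RGMa than in isotype control were 3 of 9 macrophage and monocyte markers (median log2 fold change -0.30), 1 of 9 T cell markers (-0.025), 3 of 8 endothelial markers (-0.44) and 3 of 8 skeletal muscle markers (-2.01). Higher were 2 of 7 neuron markers (0.47) and 3 of 5 dorsal root ganglion markers (1.42). Against naïve cord, 3 of the 5 ganglion markers were lower in isotype control, while 0 were lower and 1 higher in anti-RGMa. No measured marker of NK cells, B cells, homeostatic microglia, dendritic cells, astrocytes or oligodendrocytes passed. The largest median shift among these lists was that of B cells (-0.54). The part of all these cell types in the differences of the 9 genes was not tested. Without isotype control replicate 5 the signs of Psmb8 (0.014), Psmb9 (0.047), Psmb10 (0.021), Psme1 (0.0055) and Tap1 (0.016) turned.

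**Figure D3:**
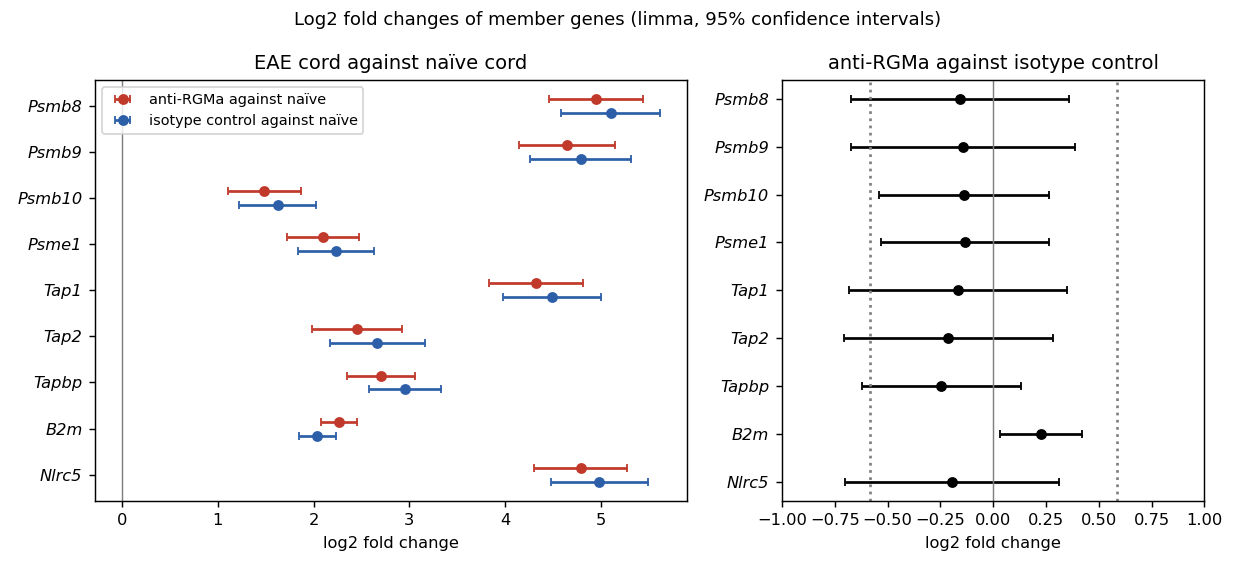
Log2 fold changes of the 9 genes with 95% confidence intervals from limma, for anti-RGMa (red) and isotype control (blue) against naïve cord (left) and for anti-RGMa against isotype control (right, with dotted lines at a fold change of 1.5). The left panel spans rises between 1.49 for Psmb10 in anti-RGMa and 5.10 for Psmb8 in isotype control, and in the right panel the points lie between -0.25 and 0.23.

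The remaining probe sets of Psmb8 and Tap1 were dim, and the 2 calls among the 15 probe sets between the antibody groups came from them (1.42% of all probe sets were called higher and 2.55% lower). Psmb8 probe set 1444619_x_at had log2 signals of 6.55, 6.99 and 8.80 in the anti-RGMa group and 8.33, 8.01, 8.34, 7.83 and 9.13 in isotype control replicates 1 to 5. The groups overlapped, with a log2 fold change of -0.95 (unadjusted p = 0.0449, adjusted p = 0.364). Tap1 probe set 1449803_x_at had 1.01, 2.46 and 5.04 in the anti-RGMa group and 4.33, 4.63, 5.09, 4.76 and 4.91 in isotype control replicates 1 to 5, with a log2 fold change of -2.05 (unadjusted p = 0.000962, adjusted p = 0.260). Against naïve cord, this probe set fell by 1.75 in anti-RGMa (adjusted p = 0.00947), against the direction of the bright Tap1 probe set, and it had 0.31 in isotype control and did not pass. Tap1 probe set 1420274_at did not pass in any comparison, and 1448177_at passed against naïve cord at 2.78 in anti-RGMa and 3.70 in isotype control. The count between the antibody groups was 1 of 15 without naïve replicate 1 or 3, anti-RGMa replicate 1, 2, 3 or 4, or isotype control replicate 1, 3 or 5, each left out alone, and 3 of 15 without anti-RGMa replicate 5.

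Within the EAE groups 8 of the 9 genes varied together from mouse to mouse. Isotype control replicate 5 was the highest of the 11 EAE arrays for all of these 8, and anti-RGMa replicate 6 the next highest. In the anti-RGMa group, replicates 4 and 6 were the 2 highest and replicates 1, 2 and 3 the 3 lowest for each of the 8 genes. Over the 11 EAE arrays the 28 pairs among them had Pearson correlations between 0.87 and 0.99 (median 0.94), and between 0.86 and 0.99 after the group means were removed. These values share arrays and scaling and are given as a description. Summed T cell markers were 4569 in anti-RGMa replicate 6, 3404 in replicate 4, 2575 in replicate 5 and 2294 to 2378 in replicates 1 to 3. In isotype control replicates 1 to 5 they were 4349, 2797, 2556, 1884 and 4321, so that replicate 1 stood as high as replicate 5. Summed macrophage and monocyte markers were 32705 in anti-RGMa replicate 4, below the 33391 to 36603 of replicates 1 to 3, and were highest in isotype control replicate 1 (48203). In the anti-RGMa group the T cell sum thus had replicates 6 and 4 highest and replicates 1 to 3 lowest, as the 8 genes did. In isotype control the T cell sum and the 8 genes were lowest in replicate 4, and the sum differed in having replicate 1 level with replicate 5. The macrophage and monocyte sum departed further, with anti-RGMa replicate 4 below replicates 1 to 3. The part of either cell type in the order of the 8 genes was not tested. The sums add linear signals, so the brightest macrophage marker, Lyz2, weighed most in its sum. In the anti-RGMa group its log2 signals ranged between 14.27 and 14.74, and those of the next brightest, Cd68, between 11.17 and 12.86. The order of a sum is therefore not that of each marker.

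B2m did not follow that order. Its correlations with the 8 others lay between -0.10 and 0.10 over the 11 arrays, and between 0.08 and 0.32 after the group means were removed. Its highest EAE arrays were anti-RGMa replicates 3, 2 and 1, which were the lowest of their group for the 8 others. The MHC class I heavy chain genes H2-K1 and H2-D1 had correlations of 0.90 and 0.86 with B2m and of 0.38 and 0.40 with Psmb8, whereas the heavy chain gene H2-M3 had 0.30 with B2m and 0.74 with Psmb8. The other B2m probe set, in contrast, had 0.52 with the brightest and 0.72 with Psmb8, so the order of the arrays depended on the probe set. Signals of the brightest B2m probe set exceeded those of 99.9% of probe sets in every EAE array. Those of H2-K1 and H2-D1 likewise exceeded at least 99.7%, whereas H2-M3 averaged 10.97 in anti-RGMa and 11.03 in isotype control on the log2 scale. Whether this shared brightness bears on the order of B2m, H2-K1 and H2-D1 was not tested.

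**Figure D4:**
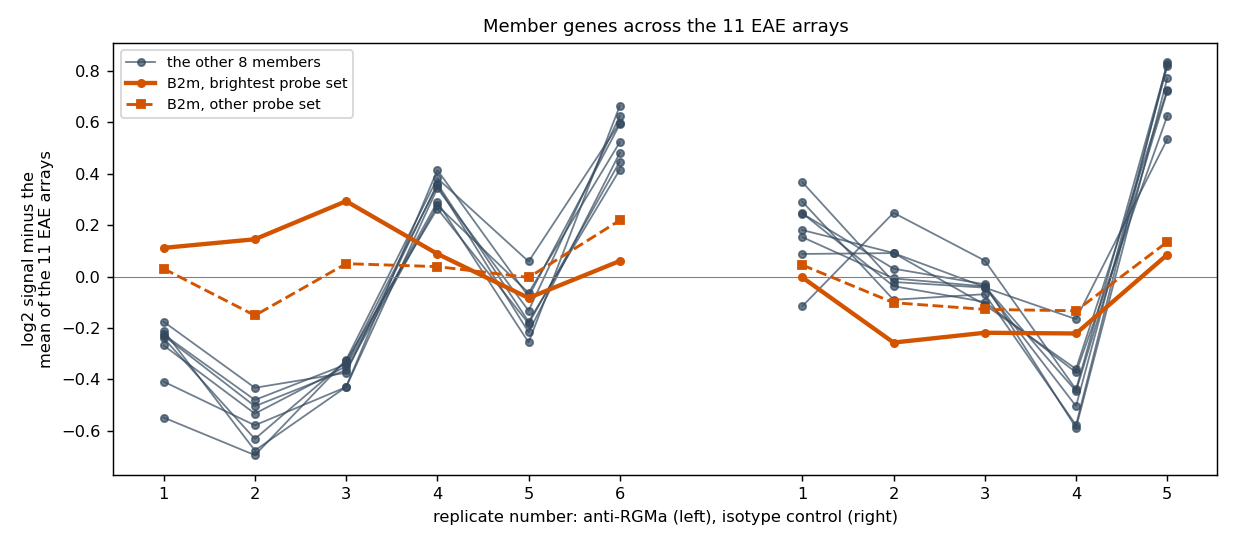
Log2 signal minus the mean of the 11 EAE arrays (vertical axis) for each EAE array by replicate number (anti-RGMa left, isotype control right), with 8 genes as dark lines, the brightest B2m probe set as a thick orange line and the other B2m probe set as a dashed orange line. The dark lines rise and fall together, with their peak in isotype control replicate 5, and the thick orange line peaks in anti-RGMa replicate 3.

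Genes of the interferon-gamma pathway were also higher in EAE cord. Of 11 measured genes of interferon-gamma signalling, 9 were higher in anti-RGMa than in naïve cord (14.0% of all genes) and 10 in isotype control than in naïve cord (18.0% of all genes), with 0 lower. Their median log2 fold changes were 1.70 and 2.05, against -0.03 and -0.04 over all genes. Ifng itself had log2 signals of 6.69, 7.06 and 8.29 in the anti-RGMa group and 6.28, 6.88 and 8.25 in the isotype control group (lowest, median and highest), and -0.13, 2.22 and 5.10 in the naïve group, where it was dim. Its log2 fold change against naïve cord was 4.97 in anti-RGMa and 4.82 in isotype control. Irf1 and Irf8, transcription factors induced by interferon, had 3.29 and 4.34 with the anti-RGMa antibody, and 3.41 and 4.50 with the isotype control antibody. Socs1, a feedback inhibitor of Jak kinases, had 2.97 with the anti-RGMa antibody and 3.08 with the isotype control antibody. Like Ifng it was dim in naïve cord, with log2 signals between 2.70 and 5.19, so these folds are less certain. Between anti-RGMa and isotype control 0 of the 11 passed, with 0.16 for Ifng and -0.11 for Irf1.

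The class I heavy chains, which pair with B2m, were measured by 10 genes. Of these, 5 were higher and 1 lower in anti-RGMa (14.0% and 9.12% of all genes), and 6 were higher in isotype control (18.0%), than in naïve cord. H2-K1 averaged 14.42 ± 0.10 on the log2 scale in the anti-RGMa group (n = 6), 14.24 ± 0.17 in the isotype control group (n = 5) and 10.89 ± 0.14 in the naïve group (n = 6), a rise of 11.5-fold in anti-RGMa and 10.2-fold in isotype control. H2-D1 rose 7.22-fold and 6.49-fold, H2-M3 4.12-fold and 4.28-fold, and the class I-like lipid presenter Cd1d1 2.02-fold and 2.29-fold in the same comparisons. Some heavy chain genes are near-identical in sequence, and their probe sets may read one another. The gene that was lower in anti-RGMa, H2-Q2, was dim, with a log2 fold change of -1.69 against naïve cord (adjusted p = 0.0100) and -1.08 against isotype control (unadjusted p = 0.0447, adjusted p = 0.364), and it was the 1 gene of the 9 pathway lists that passed between the antibody groups.

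Among 6 partners that act in the endoplasmic reticulum, 3 were higher in anti-RGMa (14.0% of all genes) and 4 in isotype control (18.0% of all genes) than in naïve cord. Erap1, which trims peptides to class I length, had log2 fold changes of 1.96 and 2.21, and Tapbpl, the tapasin-related editor, 1.88 and 2.07. Uggt1, the glucosyltransferase that returns unfolded glycoproteins to chaperones, had 1.11 and 1.31, and the chaperone Calr had 0.53, which did not pass, and 0.70, which did. Of 7 cytosolic peptidases, 1 was higher in anti-RGMa and 2 in isotype control, which is near the 14.0% and 18.0% of all genes. Lap3 (0.75 and 0.64) rose in both comparisons. Ide, the insulin-degrading enzyme, had 0.39 in anti-RGMa and passed in isotype control (0.60), and the antibody groups did not differ past the threshold. Of 8 factors that act at MHC promoters, 2 rose in each comparison (14.0% of all genes in anti-RGMa and 18.0% in isotype control), and the median log2 fold changes of the list were 0.0088 and 0.065. The 2 were the class II transactivator Ciita (3.05 in anti-RGMa and 3.24 in isotype control) and the NF-Y subunit Nfya (1.10 and 1.23). Ciita was dim in naïve cord, with log2 signals between 1.91 and 5.83, so its folds are less certain.

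In the rest of the proteasome no subunit passed as higher. Of the other 11 subunits of the 20S core, 0 passed in any comparison, with medians of 0.03 in anti-RGMa and 0.10 in isotype control against naïve cord. Without the fold threshold, at an adjusted p under 0.05, 1 of the 11 was higher and 1 lower in anti-RGMa (19.8% and 20.8% of all genes), and 2 were higher and 1 lower in isotype control (24.2% and 26.6% of all genes). Of 17 subunits of the 19S regulator, 2 were lower in anti-RGMa (9.12% of all genes were called lower), the ATPase Psmc5 (-0.71) and the non-ATPase subunit Psmd7 (-0.65). In isotype control 4 of the 17 were lower (15.5% of all genes), Psmc5 (-1.06), Psmd7 (-0.63), the ATPase Psmc1 (-0.74) and the non-ATPase subunit Psmd12 (-0.62). At an adjusted p under 0.05 without the fold threshold, 10 of the 17 were lower in each comparison (20.8% of all genes in anti-RGMa and 26.6% in isotype control), with medians of -0.29 in anti-RGMa and -0.32 in isotype control. Psme3, the γ activator of the nuclear proteasome, was the 1 gene of 8 other activators and assembly chaperones that passed, at -0.67 in anti-RGMa and -0.86 in isotype control, a share near the 9.12% and 15.5% of all genes called lower. Pomp, the chaperone that assembles the core, averaged 12.58 ± 0.11, 12.49 ± 0.17 and 12.60 ± 0.06 on the log2 scale in the anti-RGMa, isotype control and naïve groups.

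Genes outside the set were ranked by their likeness to the mean of the 9, among those whose log2 signal averaged 8 or more. Over all 17 arrays, which fall into naïve and EAE arrays, the 5 closest of 9905 were Irf1, Irgm1, Parp12, Gbp7 and Parp9, with Pearson correlations of 0.997 to 0.998. Over the 11 EAE arrays the 5 closest of 10091 were Cd274 (the checkpoint ligand PD-L1, 0.994), Gbp2 (a guanylate-binding GTPase, 0.990), Ifi47 (an immunity-related GTPase, 0.986), Dtx3l (a ubiquitin ligase, 0.983) and Slamf8 (a receptor of macrophages, 0.981). Cd274 averaged 10.51 ± 0.59 on the log2 scale in the anti-RGMa group, 10.72 ± 0.64 with the isotype control antibody and 6.85 ± 0.37 in naïve cord. Their likeness to the 9 genes fixed how they moved, so their changes are not read as results of this ranking. Irf1 is also in the list of interferon-gamma signalling, and its changes are given there.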

How the data were processed

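RNA of thoracic spinal cord was hybridised to Affymetrix Mouse Genome 430 2.0 arrays, 1 per mouse. The deposited values are probe set intensities on a linear scale, called signals here, which the authors computed with Microarray Suite 5.0 (MAS5.0) and scaled globally. Both affy and MAS5 stand in the processing notes of the submitters, without a version. No detection calls were used, and the number of arrays limits the precision.

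Probe sets were named through the platform annotation. Of 45101 probe sets, 34958 had 1 gene, 932 several and 9211 none, and only the first were used. Of them, 34754 matched the RefSeq gene table by gene ID, including all 15 used here, with 0 symbols changed. Log2 signals, with no offset or filter, entered 1 limma fit of the 3 groups (lmFit, then eBayes; limma 3.58.1 under R 4.3.3), which was first tested on simulated data. This is the tool of the study's methods, and its threshold, p under 0.05 with a fold change over 1.5, was kept. Exact permutation tests, two-sided, went through every split of the arrays in Python 3.11.15. Trimmed mean signals used scipy 1.17.1, and figures matplotlib 3.10.9. The replicates are separate mice, and no source pairs those with the same number.

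The genes and lists were chosen with earlier results of these data known. Named were the 10 genes, their standard counterparts, the 4 largest called changes of each of 9 pathway lists in isotype control against naïve, every gene of these lists called between the antibody groups, and the 5 genes most alike over 17 and over 11 arrays. Pomp was named after its values were seen. List genes with no single-gene probe set were not analysed here. Alternatives covered the scaling, an offset of 32, a mean log2 signal of at least 7, the choice of probe set, array weights, the variance model, the arrays in the fit, a replicate block, adjusted p-values and each array left out.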

Additional observations from a re-analysis of the deposited data

Results flagged for a closer look

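Of 45 groups of arrays tested over the probe sets of the 9 genes, 1 held an array that stood apart. For the dim Tap1 probe set 1448177_at, anti-RGMa replicate 1 had a log2 signal of 2.91, against 5.52 to 6.35 in the other 5 anti-RGMa arrays, by Dixon's test at the 95% level, which chance alone passes in about 1 of 20 groups. The bright Tap1 probe set gave 10.96 in that array, inside the range of its group.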

How the results depend on the processing

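Each of the 9 genes, by its brightest probe set, was called higher than in naïve cord in both EAE groups under every alternative that was run. The 1 lower call of a dim Tap1 probe set in anti-RGMa against naïve cord was lost with an offset of 32, with 13 calls of the 15 in place of 14, and the filter on dim probe sets left 12 of 12 called, all higher. With 1 probe set per gene, 4212 of 18194 genes were called in anti-RGMa against naïve cord, 6089 in isotype control against naïve cord and 716 between the antibody groups, and for the set 9 of 9 against naïve cord and 0 between the antibody groups. At an adjusted p under 0.05, 13253 of all probe sets were called in anti-RGMa against naïve cord and 0 between the antibody groups, also 0 of the set. Between the antibody groups, where 1388 probe sets were called (495 higher and 893 lower), the count was 817 with an offset of 32 and 671 of 21161 with the filter on dim probe sets. The count of the set, 2 of 15, was 1 with the offset, with the filter, and without isotype control replicates 3, 4 and 5 together.

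With each array left out in turn, the counts over all probe sets ranged from 6975 to 8817, 11049 to 12262 and 1039 to 2319 in anti-RGMa against naïve, isotype control against naïve and anti-RGMa against isotype control, with 2319 without anti-RGMa replicate 6. The set had 14, 13 and 1 to 3 calls. Without isotype control replicate 5, the log2 fold change between the antibody groups turned to 0.014 for Psmb8 (range -0.33 to 0.014), 0.047 for Psmb9 (-0.31 to 0.047), 0.021 for Psmb10 (-0.27 to 0.021), 0.0055 for Psme1 (-0.25 to 0.0055) and 0.016 for Tap1 (-0.31 to 0.016). The change of Psmb8 over Psmb5 turned to 0.040 (-0.26 to 0.040), and that of Psmb10 over Psmb7 was -0.59 without anti-RGMa replicate 6 (range -0.59 to -0.24). The causes were not tested.

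Without isotype control replicates 3, 4 and 5 together, the changes over the standard subunits in isotype control against naïve cord were 5.24, 5.00 and 2.70 (exact p = 0.0714, the smallest possible and no longer past 0.05). With the replicate number as a block they were 5.28, 4.93 and 2.58 (exact p = 0.0625, the smallest that 5 pairs allow and again not past 0.05). Same-numbered arrays share only a number (correlations of their deviations between -0.05 and 0.04), and the block gave 14, 13 and 2 calls of the set and 8314, 12422 and 1888 over all probe sets in the same order of comparisons. The median log2 fold change of all probe sets in anti-RGMa and in isotype control against naïve cord was -0.06 and -0.06 as deposited, -0.12 and -0.14 after quantile normalization and -0.17 and -0.20 after median centring. Median centring called 3698 probe sets higher and 5464 lower in anti-RGMa against naïve cord, and 4364 and 3918 were called as deposited. In isotype control against naïve cord it called 4814 and 7882, and 5759 and 6010 were called as deposited. No detection calls were at hand, so the dim probe sets have no stated background.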
